A study of Mus musculus with 12 samples.

Results

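The 56 mouse genes described here encode the Wnt ligands, their receptors and coreceptors, the secreted proteins that hold Wnt signalling back or strengthen it, and the pair of genes needed to secrete a Wnt. They were chosen by gene symbol: a probe belonged to the set where the accession that the scanner files give for it maps to one of these symbols. The 56 genes stand among 20660 genes that could be named on the array, and all 56 had at least 1 probe. By role they comprise 19 Wnt ligands, 10 Frizzled receptors, 5 coreceptors (Lrp5, Lrp6, Ror1, Ror2 and Ryk), 7 R-spondins and Lgr receptors, 6 secreted Wnt binders (Sfrp1, Sfrp2, Sfrp4, Sfrp5, Frzb and Wif1), 7 Dkk and Kremen genes and the secretion genes Porcn and Wls.

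The samples were mammary tumours of FVB mice, all of which carried the MMTV-wnt1 transgene, in which the promoter of the mouse mammary tumour virus drives Wnt1 in mammary epithelium. Tumours labelled Rarb -/- (KO) were compared with tumours labelled Rarb wild type (WT); Rarb encodes a retinoic acid receptor, a nuclear receptor that acts on genes in response to retinoids. Stroma and epithelium were cut from each tumour by laser capture (PixCell), and each RNA was labelled with Cy3 and hybridised against a universal mouse reference RNA labelled with Cy5. The 12 arrays formed 4 groups of 3, namely KO stroma (tumours 1, 3 and 4), WT stroma (tumours 1, 2 and 3), KO epithelium and WT epithelium of the same tumours. Every control thus carried the Wnt1 transgene too, and no sample without it was among those analysed. The labels give no ages and do not state that the tumours came from separate mice, so a p-value here reflects the spread among these samples, which may be technical.

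Wnt proteins are lipid-modified by Porcn, carried to the cell surface by Wls, and bind a Frizzled receptor together with Lrp5 or Lrp6, which stabilises beta-catenin. They also bind Ror or Ryk, which are best known for signalling that does not need beta-catenin. Secreted Sfrp proteins and Wif1 bind the ligands, Dkk proteins block Lrp5 and Lrp6 with the help of Kremen, and R-spondins act through Lgr receptors to keep Frizzled on the cell surface. In the mammary gland Wnt signals act on stem and progenitor cells, and Wnt1 was first found as a gene activated by the insertion of the mammary tumour virus.

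On each array 36% to 46.3% of probes had a Cy3 signal well above background, and no spot was saturated. The Rarb probe used did not check the labels, since the sources used here do not say whether it lies in the deletion. Its log2 ratio of sample over reference averaged 1.50 ± 0.81 in the KO stroma arrays and 0.36 ± 0.89 in the WT stroma arrays, with 0.24 ± 1.26 in the KO epithelium arrays and 0.29 ± 0.91 in the WT epithelium arrays (SD, n = 3 each). The other Rarb probe was well above background on 0 of 12 arrays. Markers of the labelled compartments were then examined. Of 15 fibroblast markers, all were higher in KO stroma than in KO epithelium at an adjusted p under 0.05, with mean log2 ratios of 2.46 to 2.74 per KO stroma array, whereas the WT stroma arrays lay between -0.48 and 1.07 and none of the 15 passed the test against WT epithelium. The mean of 13 measured epithelial markers was 1.36 to 2.03 in KO stroma, 2.84 to 3.21 in WT stroma, 3.02 to 3.54 in KO epithelium and 2.83 to 3.48 in WT epithelium, so WT stroma overlapped the epithelia on this list. Macrophage markers averaged 3.72 to 4.20 in KO stroma and 1.30 to 2.70 in WT stroma, and the second WT stroma array stood apart with a mean of 3.81 for T and NK cell markers against 0.04 and 0.17 on the other WT stroma arrays. Across genes, stroma and epithelium arrays correlated at a mean r of 0.57 among KO samples and 0.81 among WT samples (genes are not independent replicates). Each compartment was hybridised on its own slide and each genotype lay in its own row, so these cannot be told apart from compartment and genotype.

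**Figure D1:**
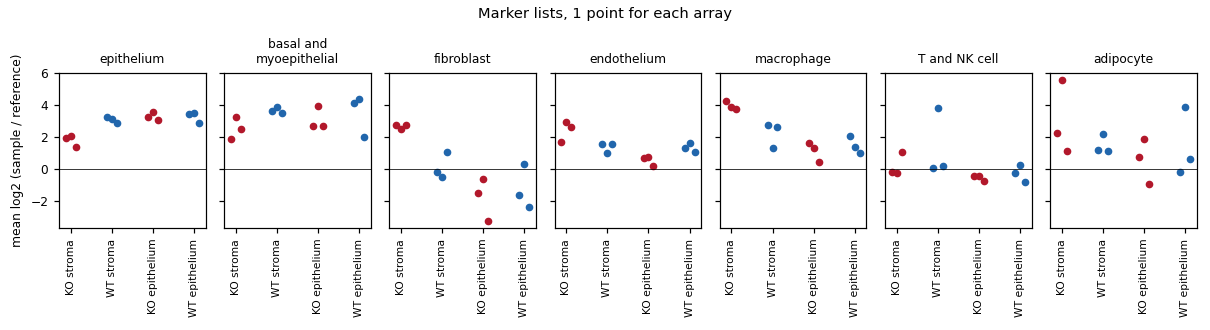
Mean log2 ratio of tumour sample over reference RNA of each marker list, with 1 point for each array and 4 groups of 3 arrays on the horizontal axis. KO stroma lies below the other groups for epithelial markers (1.36 to 2.03) and above them for fibroblast markers (2.46 to 2.74).

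Transcripts of the Wnt genes were found in all 4 groups, but part of the set was not measurable. The filter asked for a Cy3 signal well above background on 3 or more of the 12 arrays. It was passed by 35 of the 56 genes and by 13350 of all 20660 named genes, so the set was measured about as often as genes in general. Detection was complete, on all 12 arrays, for 21 genes, while 14 genes were detected on none. The 21 genes with no kept probe were the ligands Wnt2, Wnt2b, Wnt3, Wnt3a, Wnt7a, Wnt7b, Wnt8a, Wnt8b and Wnt16, the receptors Fzd5, Fzd8, Lgr4 and Ror1, and the regulators Sfrp5, Frzb, Dkk1, Dkk2, Kremen2, Rspo2, Rspo3 and Rspo4, and no fold is given for them. For those genes "not well above background" says only that these probes did not register them.

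By role, 10 of 19 Wnt ligands, 8 of 10 Frizzled receptors, 4 of 5 coreceptors, 3 of 7 R-spondins and Lgr receptors, 4 of 6 secreted Wnt binders, 4 of 7 Dkk and Kremen genes and both secretion genes had a kept probe. Per array, 26 to 33 of the 56 were detected in KO stroma, 29 to 36 in WT stroma, 29 to 33 in KO epithelium and 26 to 33 in WT epithelium. The ranges overlapped in every pair of groups. Sfrp4, Wnt9a and Wnt9b were detected on 3 of 3 KO stroma arrays and 0 of 3 KO epithelium arrays. Sfrp4 was detected on 1 of 3 WT stroma arrays, Wnt9a on 2 and Wnt9b on 3.

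**Figure D2:**
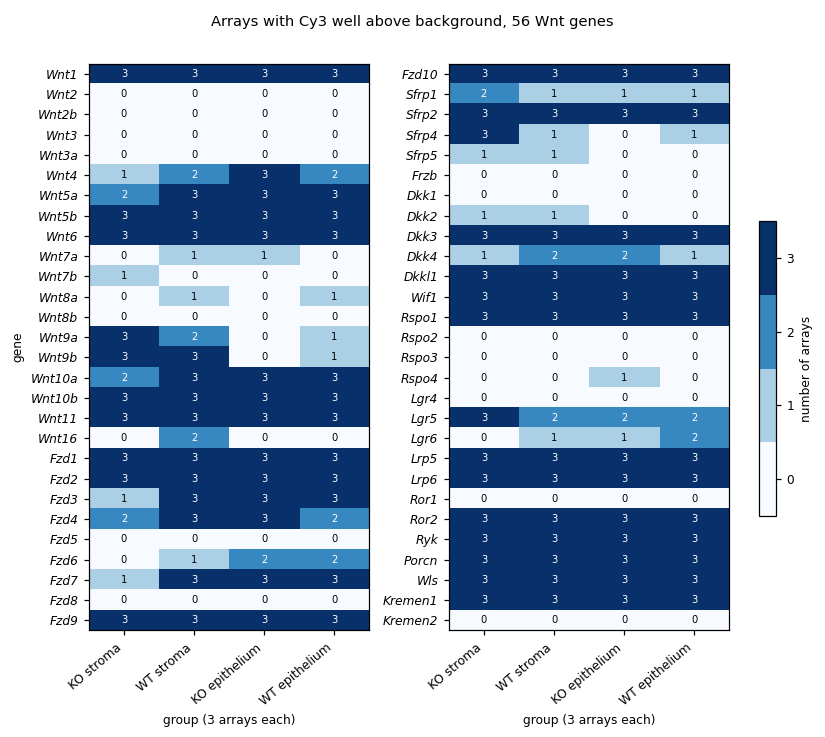
Number of arrays, of 3 in each group, on which Cy3 was well above background for each of the 56 genes (any probe of the gene), from 0 (white) to 3 (dark). The groups run from left to right as KO stroma, WT stroma, KO epithelium and WT epithelium, and 21 genes are dark in all 4 columns.

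All levels that follow are log2 ratios of the tumour sample over the reference RNA, read from 1 probe per gene, so they compare samples and not genes. The reference was well above background on 0 of 12 arrays for Wif1, Rspo1, Fzd6, Fzd7, Fzd10, Lgr5, Lgr6, Sfrp1 and Dkk4, and on 1 for Fzd9. The ratios of these genes rest on a reference signal near background, so their size depends on the background correction. Wnt1, the gene the transgene carries, gave log2 ratios of 2.90 to 3.80 in KO stroma, 6.53 to 7.20 in WT stroma, 7.05 to 7.57 in KO epithelium and 7.14 to 7.67 in WT epithelium. Whether the transcript came from the transgene or from the resident Wnt1 gene cannot be told apart with this probe. Each captured sample is a bulk RNA, in which fewer cells of a type and less RNA per cell cannot be told apart.

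**Figure D3:**
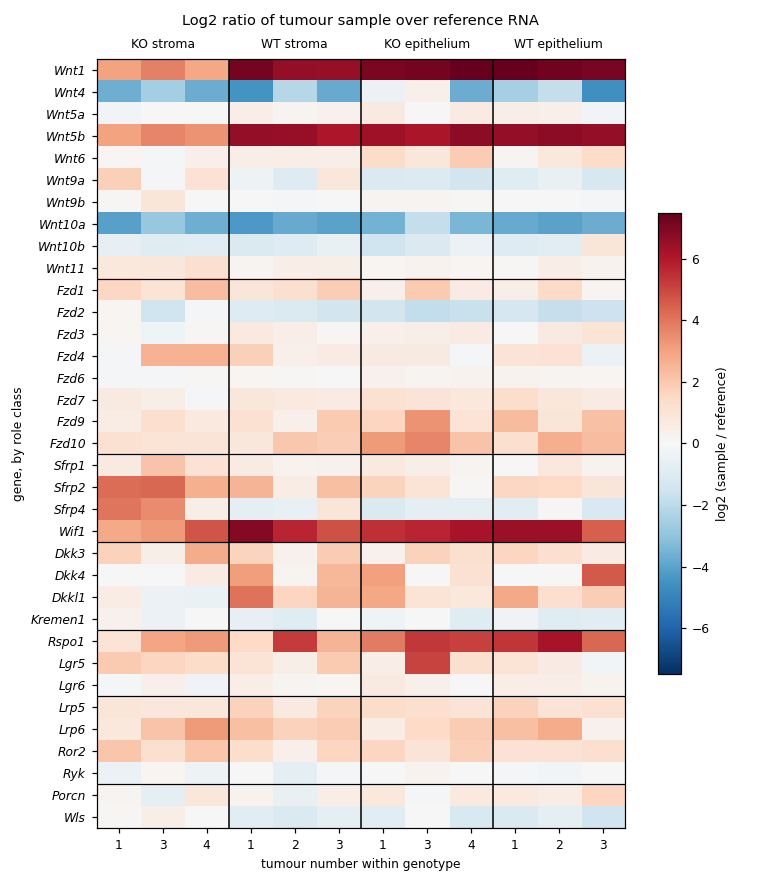
Log2 ratio of tumour sample over reference RNA of the 35 genes with a kept probe (rows, grouped by role) on the 12 arrays (columns, named by tumour number). Wnt1 and Wnt5b are paler in the 3 KO stroma columns (2.90 to 3.80) and dark in the other 9 (6.05 to 7.67).

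KO stroma held less transcript of a few Wnt genes than WT stroma. Wnt1, Wnt5b and Dkkl1 fell, 3 of 35 measured genes (8.57%), and 0 rose, against 6.45% of all 13350 genes tested (2.93% lower and 3.52% higher; limma, Benjamini-Hochberg adjusted p under 0.05). The median difference of the 35 was 0.06 and that of all genes -0.01, with 20 of the 35 above 0 and 15 below. Groups did not overlap for 10 of the 35 (28.6%, 4 higher and 6 lower in KO), against 26.2% of all genes (13.1% higher and 13.1% lower). The share of Wnt genes called was thus near the background, and what follows concerns the named genes.

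Wnt1, a ligand that signals through beta-catenin, had log2 ratios of 3.01, 3.80 and 2.90 in KO stroma, against 7.20, 6.60 and 6.53 in WT stroma. The groups did not overlap, and the highest KO stroma value lay far below the lowest WT stroma value. Wnt1 was 11.6-fold lower in KO stroma (log2 difference -3.53, SE 0.29, adjusted p = 0.000856), and it stayed past the threshold in 14 of 14 other settings, with differences between -3.82 and -2.88. A second, dimmer Wnt1 probe was well above background on 0 of 3 KO stroma arrays and 3 of 3 WT stroma arrays, which gives at least 3.94-fold lower Wnt1 in KO stroma.

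Wnt5b, a ligand best known for signalling that does not need beta-catenin, was read at 3.03, 3.64 and 3.38 in KO stroma, against 6.62, 6.54 and 6.05 in WT stroma. The groups were again far apart. Its level was 8.29-fold lower in KO (log2 difference -3.05, SE 0.22, adjusted p = 0.00058), and this held in 14 of 14 other settings, from -3.23 to -2.89.

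Dkkl1, a secreted protein related to the Dkk inhibitors and known best from developing sperm, gave 0.58, -0.46 and -0.50 in KO stroma, against 4.09, 1.64 and 2.54 in WT stroma. No KO value reached the lowest WT value, but the WT arrays differed more widely among themselves than for Wnt1. The gene was 7.37-fold lower (log2 difference -2.88, SE 0.71, adjusted p = 0.0401). This call was lost without KO replicates 1, 3 or 4 (adjusted p = 0.0686, 0.105 and 0.098) and without WT replicates 1 or 3 (0.14 and 0.0665). It was also lost with Agilent's processed signals (0.0539), with no filter on dim probes (0.0576) and with the stromal arrays alone (0.0703), 8 of 14 settings in all, while the difference stayed between -3.44 and -2.22 in all 14 settings.

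Some epithelial markers moved the same way in these samples. Of 13 measured, 4 (Krt8, Krt18, Elf5 and Cldn3) were called lower in KO stroma, with log2 differences of -3.18, -1.71, -3.04 and -2.34. Of the 13, 10 lay below 0 and 3 above, namely Krt5 (0.06), Cldn4 (0.08) and Esrp1 (0.57), and 0 were called higher. Of the other lists, 5 of 15 fibroblast and 3 of 9 macrophage markers were higher. Of all genes 2.93% were lower and 3.52% higher. The part of the markers in the fall of Wnt1, Wnt5b and Dkkl1 was not tested.

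The promoter windows of the genes that fell together are shown because the study concerns a nuclear receptor in Wnt-driven tumours. Each is the 250 bases before a RefSeq start site (GRCm38.p6, written on the gene's strand). A script searched both strands for CTTTGAT or its complement ATCAAAG, a core of the sites bound by the beta-catenin partners TCF and LEF, and for AGGTCA or TGACCT, the half-site of many nuclear receptors; matches are in capitals. Wnt1 lies at chr15:98789607-98789856 (+), one of the starts of Wnt5b at chr6:119449387-119449636 (-) and Dkkl1 at chr7:45211884-45212133 (-).
Wnt1: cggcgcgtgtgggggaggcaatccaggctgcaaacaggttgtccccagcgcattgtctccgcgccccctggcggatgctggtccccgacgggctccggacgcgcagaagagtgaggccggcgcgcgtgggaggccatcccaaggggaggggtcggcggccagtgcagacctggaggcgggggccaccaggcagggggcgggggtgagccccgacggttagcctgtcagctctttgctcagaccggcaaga
Wnt5b: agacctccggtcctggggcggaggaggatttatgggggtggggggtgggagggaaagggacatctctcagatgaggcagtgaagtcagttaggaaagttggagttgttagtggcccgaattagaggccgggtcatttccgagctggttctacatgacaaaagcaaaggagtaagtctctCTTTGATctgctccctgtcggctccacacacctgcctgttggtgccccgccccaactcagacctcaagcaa
Dkkl1: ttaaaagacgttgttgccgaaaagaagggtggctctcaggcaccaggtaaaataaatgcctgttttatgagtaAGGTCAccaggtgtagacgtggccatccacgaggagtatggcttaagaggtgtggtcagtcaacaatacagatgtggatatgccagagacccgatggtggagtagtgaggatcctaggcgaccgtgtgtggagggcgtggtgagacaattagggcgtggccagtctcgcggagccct
The first motif was found in this window of Wnt5b and in none of its other windows, and the second in Dkkl1, while the Wnt1 window held neither. Of 32851 RefSeq windows of this length, 3.21% held the first motif and 14% the second. Among 40 windows of 37 Wnt genes, 2 (5%) held the first (Wnt5b and Wnt11) and 2 (5%) the second (Dkkl1 and Wnt16). A match is a description of these letters. The transgene has its own viral promoter, so the Wnt1 window is that of the resident gene.

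The secreted Wnt binders showed large differences that missed the threshold in KO stroma against WT stroma. Sfrp4, which binds Wnts outside the cell, had log2 ratios of 4.01, 3.57 and 0.45 in KO stroma, against -0.72, -0.53 and 0.93 in WT stroma, where it was well above background on 1 of 3 arrays. KO replicate 4 lay below the highest WT value, so the groups overlapped. The difference was 2.79 (SE 0.81, adjusted p = 0.0671), and without KO replicate 4 it was 3.90 (adjusted p = 0.0102). In 12 of 13 other settings it was not called, with adjusted p up to 0.212. Sfrp4 passed the background filter only through its KO stroma arrays, so this difference is not independent of the filter.

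Sfrp2, of the same family and typical of connective tissue, stood at 4.21, 4.33 and 2.64 in KO stroma, against 2.52, 0.56 and 2.23 in WT stroma. The groups did not overlap, by a narrow margin. The difference was 1.96 (SE 0.60, adjusted p = 0.0805), and 2.50 without KO replicate 4 (adjusted p = 0.0463). In 13 of 14 other settings it was not called, with adjusted p up to 0.231.

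Wif1, which binds Wnts through a domain unlike that of the Sfrps, ran the other way, with 2.86, 3.19 and 4.72 in KO stroma, against 6.88, 5.71 and 4.79 in WT stroma. KO replicate 4 and WT replicate 3 almost met. The difference was -2.20 (SE 0.68, adjusted p = 0.0819). Sfrp1 differed by 0.90 (adjusted p = 0.155) and was well above background on 2 KO and 1 WT stroma arrays.

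Among the other ligands, Wnt11, best known for signalling that does not need beta-catenin, gave 0.79, 0.85 and 1.18 in KO stroma, against 0.20, 0.49 and 0.44 in WT stroma. This was a difference of 0.57 (SE 0.17, adjusted p = 0.0781) with no overlap. With Agilent's processed signals it was 1.33 (adjusted p = 0.0296), and in 13 of 14 other settings it was not called, with adjusted p up to 0.248. Wls, the carrier of Wnts to the cell surface, had 0.06, 0.41 and 0.04 in KO stroma, against -0.84, -1.09 and -0.69 in WT stroma. All KO values were above all WT values, and the difference of 1.04 (SE 0.29) narrowly missed the threshold (adjusted p = 0.0592). Porcn, the enzyme that adds the lipid, differed by 0.03 (SE 0.45).

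Receptors gave no call between KO and WT stroma. The 8 measured Frizzled genes had a median difference of -0.20, with 3 above 0 and 5 below. Fzd2 was 0.14, -1.48 and -0.08 in KO stroma, against -0.99, -1.09 and -1.38 in WT stroma, so KO replicate 3 lay with the WT arrays. Its difference was 0.68 (adjusted p = 0.32), and 1.18 without KO replicate 3 (adjusted p = 0.0262). In 13 of 14 other settings it was not called, with adjusted p up to 0.678. The coreceptors Ror2, Lrp5 and Ryk differed by 0.67, -0.50 and 0.04, with adjusted p of 0.312, 0.34 and 0.952.

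R-spondin 1 and its receptors were likewise not called. Rspo1 was 1.04, 2.98 and 3.20 in KO stroma, against 1.52, 5.26 and 2.57 in WT stroma, a difference of -0.71 (adjusted p = 0.715). Without WT replicate 2 the sign turned, to 0.36. Lgr5, a receptor of R-spondins that marks stem cells in several tissues, differed by 0.48 (adjusted p = 0.823). Lgr6, of the same receptor family, was well above background on 0 of 3 KO and 1 of 3 WT stroma arrays and has no fold. Of the Dkk and Kremen genes, Kremen1 differed by 0.46 and Dkk4 by -1.74 (adjusted p = 0.451 and 0.468). Dkk4, a Lrp6 blocker, was above background on 1 of 3 KO and 2 of 3 WT stroma arrays. The ligands Wnt6 and Wnt9a differed by -0.33 and 1.10 (adjusted p = 0.609 and 0.249) and the receptors Fzd7 and Fzd10 by -0.42 and -0.51 (0.358 and 0.588). Wnt4, Wnt5a, Wnt9b, Wnt10a, Wnt10b, Fzd1, Fzd3, Fzd4, Fzd9, Dkk3 and Lrp6 ran from -0.46 for Fzd3 to 0.81 for Fzd4, with adjusted p of 0.325 and above. Fzd6 was well above background on 0 of 3 KO and 1 of 3 WT stroma arrays and has no fold.

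**Figure D4:**
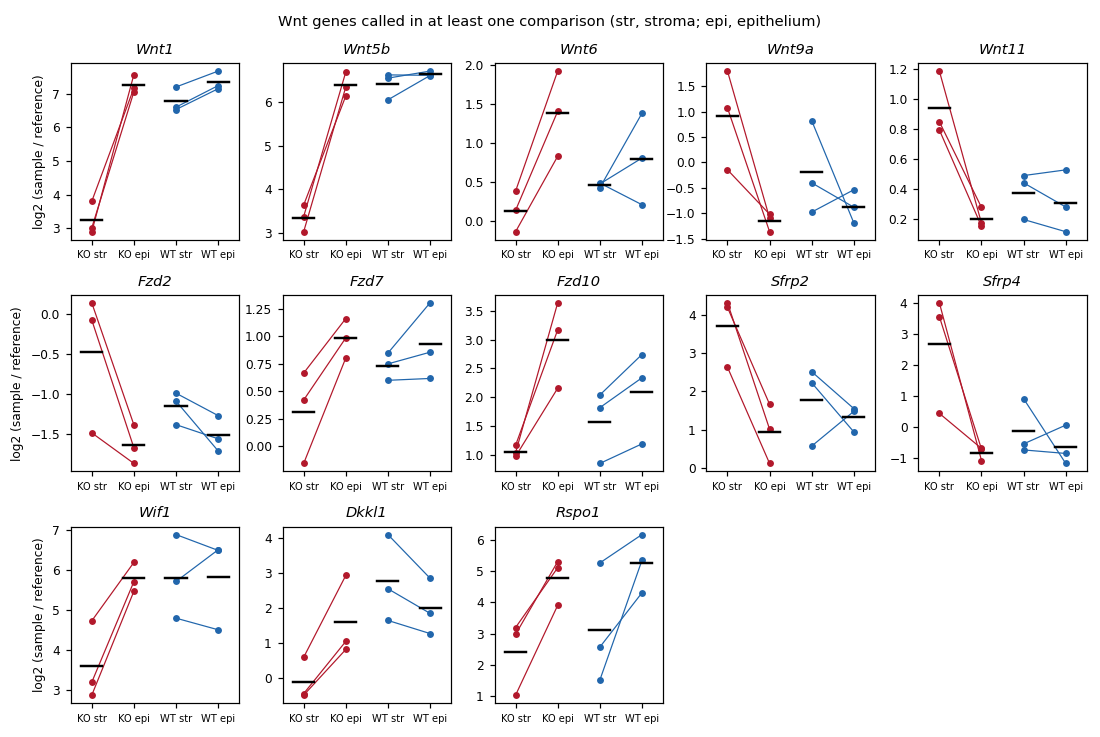
Log2 ratio of tumour sample over reference RNA of the 13 genes past the threshold in at least 1 comparison. Points are arrays, lines join stroma and epithelium of a tumour, black bars are group means of 3, and each panel has its own scale. For Wnt1 and Wnt5b the 3 KO stroma points lie at 2.90 to 3.80 and the other 9 points at 6.05 to 7.67.

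In the epithelium, KO and WT tumours gave no called Wnt gene. Of 35 genes 0 passed the limma test and 0 had an unadjusted p under 0.05, against 1 called gene in all (0.00749%) and 8.08% of genes with an unadjusted p under 0.05. The smallest adjusted p was 0.641, for Wnt10a, and 0 was also the count in each of 15 other settings. The log2 ratios of the groups did not overlap for 2 genes (5.71%, Wnt9b and Wnt10a, both with the higher ratio in KO), against 14% of all genes (9.54% higher). Wnt9b has no settled direction here: it was well above background on 0 of 3 KO and 1 of 3 WT epithelium arrays, its Cy3 signal was the higher one in WT epithelium, and its Cy5 reference signal was lower on the KO epithelium arrays by 0.54 (adjusted p = 0.0157).

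Wnt1 itself was 7.05, 7.16 and 7.57 in KO epithelium, against 7.67, 7.24 and 7.14 in WT epithelium. The groups overlapped, and the difference of -0.09 (SE 0.29, adjusted p = 0.959) changed sign in 4 of 15 other settings. The second probe gave -1.22, with 0.96 to 1.44 in KO epithelium and 1.77 to 3.28 in WT epithelium, and was above background on all 6 of these arrays. On this probe the groups did not overlap, so the probes differ on whether Wnt1 was lower in KO epithelium. The mean of both gave -0.66 (adjusted p = 0.69). In the reference channel, which holds the same RNA on every array, Cy5 of the first probe was lower on the KO epithelium arrays by 0.73 (adjusted p = 0.00451). This raises the ratio of the first probe in KO epithelium. Wnt1 was 1 of 2 Wnt genes among 46 genes called there. With the sample channel alone, without the reference, the difference was -0.50 (adjusted p = 0.648).

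The largest epithelial difference belonged to Lgr5, with 0.48, 5.05 and 1.18 in KO epithelium, against 1.03, 0.62 and -0.19 in WT epithelium. Among these 6 arrays the epithelium of KO tumour 3 stood alone, while the stroma of that tumour was at 1.59. The difference was 1.75 (SE 0.96, adjusted p = 0.663). Dkk4 was similarly uneven, with 3.09, 0.04 and 1.13 in KO epithelium, against 0.05, 0.00 and 4.60 in WT epithelium, so single tumours of both genotypes were high. The Wnt10a values were -3.55, -1.78 and -3.44 in KO epithelium, against -3.78, -4.00 and -3.73 in WT epithelium.

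Within KO tumours, stroma and epithelium differed in many Wnt genes. Of 35, 13 passed the test with tumour as a block (37.1%, 5 higher and 8 lower in stroma), against 20% of all genes (10.2% higher and 9.85% lower). Among the higher genes, Sfrp4 had passed the background filter only through its KO stroma arrays. In all 3 KO tumours the sign was the same for 25 genes (71.4%, 8 higher and 17 lower), against 54.3% of all genes (25.2% higher and 29.2% lower). The median difference was -0.34, and -0.03 over all genes. The count was 7 without KO tumour 1, 8 without KO tumour 3 and 8 without KO tumour 4.

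Ligands moved in both directions, 2 higher and 3 lower in KO stroma among 10 measured. The Wnt1 ratio fell to 6.6% ± 2.94 of that in the epithelium of the same KO tumour (SD, n = 3), from the values given above. This was a log2 difference of -4.02 (SE 0.25, adjusted p = 0.00179). The Cy5 reference signal of Wnt1 was higher by 1.15 on the KO stroma arrays (adjusted p = 0.00104), which lowers this ratio. With Cy3 alone the difference was -2.78 (adjusted p = 0.00237). The second Wnt1 probe gave -1.06, a bound of at least 1.61-fold lower because no KO stroma array was above background, so the probes differ by more than 1 on the log2 scale, and their mean gave -2.54. Wnt5b, at 3.03 to 3.64 in KO stroma, read 6.34, 6.14 and 6.68 in KO epithelium, and stroma reached 12.7% ± 4.43 of it (log2 difference -3.04, SE 0.22, adjusted p = 0.0018).

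Wnt6, a ligand made by many epithelia, was 0.14, -0.14 and 0.38 in KO stroma, against 1.41, 0.83 and 1.92 in KO epithelium. Stroma was lower in each tumour, by 1.27, 0.97 and 1.54 on the log2 scale (mean difference -1.26, adjusted p = 0.0188). Wnt11 was the reverse, at 0.79 to 1.18 in KO stroma, against 0.15, 0.28 and 0.17 in KO epithelium, and was higher in the stroma of each KO tumour (difference 0.74, SE 0.16, adjusted p = 0.0236). Wnt9a gave 1.80, -0.14 and 1.07 in KO stroma, against -1.10, -1.02 and -1.37 in KO epithelium, where 0 of 3 arrays were well above background. Its group mean of Cy3 was at least 3.38-fold higher in stroma. The limma test was made on the ratio and not on this bound (adjusted p = 0.0384). The ratio differed by 2.90, 0.88 and 2.44 on the log2 scale in KO tumours 1, 3 and 4.

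Among the secreted Wnt binders, Sfrp2 and Sfrp4 rose and Wif1 fell in KO stroma relative to KO epithelium. Sfrp2, at 2.64 to 4.33 in KO stroma, gave 1.66, 1.01 and 0.11 in KO epithelium, below every KO stroma value, a 6.97-fold difference (log2 2.80, SE 0.43, adjusted p = 0.00774). Sfrp4, at 0.45 to 4.01 in KO stroma, gave -1.07, -0.70 and -0.68 in KO epithelium, with 0 of 3 arrays above background there. Its group mean of Cy3 was at least 8.2-fold higher in KO stroma. The limma test was made on the ratio and not on this bound (adjusted p = 0.027). The ratio differed by 5.08, 4.27 and 1.13 on the log2 scale in KO tumours 1, 3 and 4. Elsewhere it was above background on 1 WT stroma and 1 WT epithelium array. It thus passed the filter of 3 arrays only through KO stroma, and its p-value is not independent of that filter.

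Wif1, at 2.86 to 4.72 in KO stroma, gave 5.46, 5.70 and 6.18 in KO epithelium, and stroma was lower in each KO tumour, at 23.4% ± 11.2 of it (log2 difference -2.19, SE 0.32, adjusted p = 0.00689). Dkkl1, at -0.50 to 0.58 in KO stroma, gave 2.92, 1.04 and 0.80 in KO epithelium, and the stroma of each tumour was lower, at 31.9% ± 10.8 (log2 difference -1.71, SE 0.26, adjusted p = 0.00802).

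Receptors and R-spondin 1 also separated the KO compartments. Fzd10 gave 1.16, 1.03 and 0.97 in KO stroma, against 3.17, 3.64 and 2.16 in KO epithelium, a 3.82-fold lower level in stroma (log2 difference -1.93, SE 0.27, adjusted p = 0.00612). Fzd7, a receptor linked to mammary stem cells, gave 0.67, 0.42 and -0.16 in KO stroma, where 1 of 3 arrays was above background, against 1.16, 0.99 and 0.80 in KO epithelium. Its difference was -0.67 (adjusted p = 0.041).

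Fzd2 was the reverse, at -1.48 to 0.14 in KO stroma, against -1.38, -1.86 and -1.67 in KO epithelium, and higher in each KO stroma, by 1.52, 0.38 and 1.59 (mean difference 1.16, adjusted p = 0.0267). Rspo1, the secreted enhancer of Wnt signals, was at 1.04 to 3.20 in KO stroma, against 3.90, 5.30 and 5.11 in KO epithelium, so that stroma held 20.1% ± 6.47 of it (log2 difference -2.37, SE 0.52, adjusted p = 0.0232). It was lower in all 3 tumours. Of the genes that did not pass, Fzd9, a less studied Frizzled receptor, came nearest with -1.14 (adjusted p = 0.0638), and Wnt4, a ligand of mammary side branching, differed by -2.06 (adjusted p = 0.0951).

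Of these 13 genes, Wnt1, Wnt5b, Fzd10, Sfrp2 and Wif1 stayed past the threshold in all 10 other settings. The others lost it in at least 1 setting. Without the block it was lost by Dkkl1 (adjusted p = 0.127), Fzd7 (0.0805) and Rspo1 (0.103), with processed signals by Fzd7 (0.172), with Cy3 alone by Rspo1 (0.0543) and with no filter by Wnt9a (0.0537). Without KO tumour 1, 3 or 4 the adjusted p was 0.0883, 0.108 and 0.162 for Fzd7, 0.112, 0.0884 and 0.0721 for Rspo1, 0.0785, 0.0556 and 0.0909 for Wnt6, and 0.0696, 0.0659 and 0.106 for Wnt11. It was 0.124 and 0.118 for Fzd2 and 0.172 and 0.141 for Wnt9a without KO tumours 1 and 4, and 0.129 and 0.119 for Sfrp4 without KO tumours 1 and 3. In the same samples all 15 fibroblast, all 9 measured macrophage, 5 of 9 endothelial and 3 of 8 adipocyte markers were called higher in KO stroma. Of 13 epithelial markers 8 were called lower, with Krt8 at -2.87 and Elf5 at -3.46. Krt5 (-0.13), Krt14 (-1.25), Cldn4 (-0.04), Ehf (-0.57) and Esrp1 (0.56) were not called. Of all genes 10.2% were higher and 9.85% lower. The part of the markers in these differences was not tested.

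Within WT tumours, 0 of 35 Wnt genes passed the same test between stroma and epithelium, and 1 of 13350 genes did (0.00749%). An unadjusted p under 0.05 was found for 3 of the 35, against 8.83% of all genes, and the sign was the same in all 3 WT tumours for 11 (31.4%, 2 higher and 9 lower), against 31.2% of all genes (16.3% higher and 14.9% lower). Wnt1 in WT stroma was 67.2% ± 4.32 of its level in the epithelium (SD, n = 3), lower by 0.47, 0.64 and 0.62 on the log2 scale (difference -0.58, SE 0.25, adjusted p = 0.571). The Cy5 reference signal of Wnt1 was higher by 0.52 on the WT stroma arrays than on the WT epithelium arrays (adjusted p = 0.023), and with Cy3 alone the difference turned to 0.039 (adjusted p = 0.971), so the ratio sets no direction for Wnt1 between the WT compartments. Wnt5b was at 86% ± 16.5 and Wif1 at 104% ± 40.2, with per-tumour differences of both signs.

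The 3 genes with the smallest p were Rspo1, Porcn and Dkkl1. Rspo1 gave 1.52, 5.26 and 2.57 in WT stroma, against 5.34, 6.16 and 4.30 in WT epithelium, and was lower in each stroma (difference -2.15, SE 0.52, adjusted p = 0.42). Stroma held 30.2% ± 23.2 of it, so Rspo1 was below the epithelium in all 6 tumours of the series. Porcn gave 0.29, -0.56 and 0.52 in WT stroma, against 0.71, 0.55 and 1.63 in WT epithelium (difference -0.88, adjusted p = 0.42), and Dkkl1 was higher in WT stroma by 0.78 (adjusted p = 0.501).

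**Figure D5:**
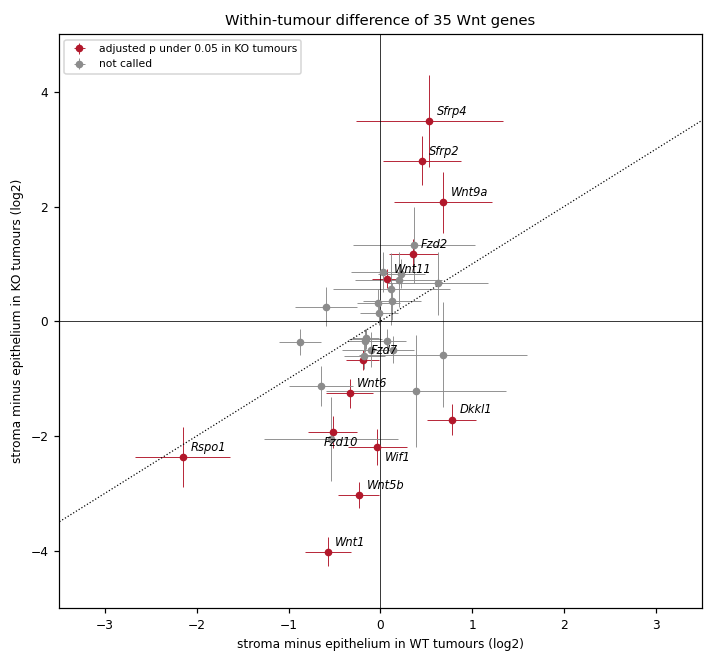
Stroma minus epithelium of the same tumour on the log2 scale for the 35 genes, in KO tumours (vertical) and WT tumours (horizontal), with bars of 1 standard error of the fit. Red points passed an adjusted p of 0.05 in KO tumours and the dotted line marks equal differences. Wnt1 (-4.02 in KO, -0.58 in WT) and Wnt5b (-3.04 in KO, -0.24 in WT) lie far below the line and Rspo1 (-2.37 in KO, -2.15 in WT) lies on it.

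The difference between genotypes in this step was tested as well, since a call in KO and none in WT does not show that they differ. The test sets the KO effect in stroma against that in epithelium. Of 35 genes 0 passed, as of all 13350 genes (0%), while 9 of 35 and 18.1% of all genes had an unadjusted p under 0.05. Wnt1 (-3.44, SE 0.36) and Wnt5b (-2.80, SE 0.32) each had an adjusted p of 0.0551, and Dkkl1 (-2.49, SE 0.37) had 0.0611. Wnt1 and Wnt5b were past the threshold in 6 of 13 other settings each, among them the fit without the tumour block (adjusted p = 0.028 for both), where 2 of the 35 Wnt genes and 50 of all genes passed, and the fit without WT tumour 3 (0.0468 for both). With the mean of both Wnt1 probes the Wnt1 value was -2.22 (adjusted p = 0.054). For Rspo1 the difference was -0.21 (SE 0.73, adjusted p = 0.91).

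The Cy5 reference channel was put through the same fits, since it should not depend on the sample. Between KO and WT stroma it gave 0 called genes, and Wnt1 differed there by -0.10, Wnt5b by -0.17 and Dkkl1 by -0.03. Between compartments it gave 2782 called genes of 13350 in KO and 937 in WT. Among them were 7 and 3 of the 35 Wnt genes, shares near those of all genes. The ratio of sample over reference gave 2671 called genes between the KO compartments, so calls between compartments were made over a reference that itself differed there. Among the 13 Wnt genes called on the ratio in KO tumours, only Wnt1 was also called in Cy5. Cy5 for Wnt1 was higher by 1.15 on the KO stroma arrays and by 0.52 on the WT stroma arrays than on those of the epithelium (adjusted p = 0.00104 and 0.023), which lowers its ratio in stroma, while Wnt5b and Dkkl1 were not called. With the Cy3 channel alone, the difference of Wnt1 between KO stroma and KO epithelium was -2.78 (adjusted p = 0.00237).

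Other genes of the pathway were taken from a list of 31, of which 27 were measured. Most act inside the cell or at the membrane, but the list also holds the secreted Notum. Between KO and WT stroma 2 of 27 were lower (7.41%) and 0 higher, near the 6.45% of all genes called (2.93% lower), with a median of -0.27. They were Rnf43, a ubiquitin ligase that removes Frizzled receptors and that Wnt signals induce (log2 difference -1.77, adjusted p = 0.00538), and Csnk1a1, a kinase that marks beta-catenin for degradation (-0.56, adjusted p = 0.044). Axin2, a common read-out of beta-catenin activity, differed by 0.49 (adjusted p = 0.533).

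In KO stroma against KO epithelium 5 of 27 were lower (18.5%) and 0 higher, against 9.85% of all genes lower and 10.2% higher (20% in either direction). The median difference was -0.57, and -0.03 over all genes. Rnf43 fell by 2.56 (adjusted p = 0.00179), Vangl2, a planar polarity protein, by 1.22 (0.00739), Ctnnb1, which encodes beta-catenin, by 1.21 (0.00898) and Csnk1a1 by 0.88 (0.0148). The remaining gene, the formin Daam1, was well above background on 0 of 3 KO stroma arrays. In the epithelium between genotypes, and between compartments in WT, 0 of 27 passed.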

How the data were processed

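RNA of laser-captured stroma and epithelium was measured on 12 Agilent arrays. Per the labels, samples were labelled with Cy3 and a common reference RNA with Cy5, and the dyes were never swapped. Agilent Feature Extraction 10.7.3.1 made the scanner files, which hold, per the file headers, the intensity of each spot and its local background, flags, and a log10 ratio. The deposited value table holds log2 values of unstated making. Its 6 epithelial columns ran as reference over sample (r -0.924 to -0.895 with the scanner ratio). Its 6 stromal columns matched no array and were not used.

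Median intensities were corrected by normexp (offset 50) and loess within array, with control spots (3671 of 62976) at weight 0 and non-uniform spots set missing (211 on WT epithelium 3, at most 16 elsewhere). Spots were averaged to 55681 probes, of which 27235 were named through RefSeq (GRCm38.p6) by accession. No array coordinates are given. Probes whose Cy3 passed the scanner's background flag on 3 or more of 12 arrays were kept, with the brightest such probe taken per gene (13350 genes). Tests used limma 3.58.1 in R 4.3.3 with Benjamini-Hochberg adjustment over all genes, checked on simulated data. KO was compared with WT in a fit of 4 group means. Compartments, and how far the KO effect differed between them, were compared with tumour as a fixed block, from the tumour numbers in the titles. Deviations of both compartments of a tumour from their group means correlated at 0.0908 to 0.454, each above those with any other stroma of its group. The deviations of the 3 arrays of a group sum to 0, so part of this margin is built in. It was smallest for KO tumour 1 (0.0908 against -0.0212). Bounds ("at least") compare group means of Cy3 after loess and Aquantile, so single tumours can lie below them, and they are open to dye bias. The number of arrays limits precision.

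Genes past the threshold in any comparison were named, Wnt1 always, and each role was filled to 3 by the smallest p between KO and WT stroma. The members and lists were chosen with earlier results of these data known.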

Additional observations from a re-analysis of the deposited data

Results flagged for a closer look

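Dkkl1 was flagged because the sign of its difference between compartments was opposite in KO and WT tumours. The signs below are those of that rule, and how many of all genes share the pattern was not counted. Its log2 ratio was lower in stroma than in epithelium in all 3 KO tumours, by 2.34, 1.49 and 1.31. In all 3 WT tumours it was higher in stroma, by 1.25, 0.38 and 0.70, a difference that was not called (0.78, limma adjusted p = 0.501). Set against each other, the KO effect in stroma minus that in epithelium came to -2.49, with an adjusted p of 0.0611 (limma), which did not pass. Dkkl1 was past the threshold in 3 of 13 other settings.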

How the results depend on the processing

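Of the values of single named genes under the alternatives, 665 kept their direction and side of the threshold, 32 lost and 19 gained the call, and 21 changed sign; all the sign changes were in differences that were not called. The count of Wnt genes called between KO and WT stroma was 2 to 4 without 1 replicate and 3 with tumour as a random replicate block, and that block changed no call of a Wnt gene in either compartment. All genes called there numbered 861, and 175 without WT replicate 1, 314 without KO replicate 1, 359 without WT replicate 2, 514 without KO replicate 3, 539 with Agilent's processed signals and 294 with the stromal arrays alone. The count between KO stroma and KO epithelium, 13, was 7 to 8 without 1 tumour. All genes called there numbered 2671, and 1209, 1147 and 1075 without KO tumours 1, 3 and 4 and 4123 with Cy3 alone. The difference of the KO effect, with 0 calls, gave 3 with Cy3 alone, 2 with no filter, 3 with the filter on all 12 arrays, 3 with array weights, 2 with no replicate block and 0 to 2 without 1 tumour. Over all genes these fits called 111, 22, 83, 157, 50 and at most 144, against 0.

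Signs turned as follows, with the range without 1 replicate given last. Between KO and WT epithelium, Wnt1 was 0.25 with processed signals, 0.11 in the deposited value table and -0.24 to 0.070. Between KO and WT stroma, Porcn was -0.10 with Cy3 alone, -0.019 with array weights and -0.33 to 0.44. There Ryk was -0.031 with Cy3 alone and -0.18 to 0.17, and Rspo1 was -1.51 to 0.36, its upper end without WT replicate 2. Between stroma and epithelium in WT, Fzd7 was 0.12 with processed signals, Sfrp4 was -0.25 to 1.10, Wif1 was 0.39 with Cy3 alone and -0.25 to 0.34, and Wnt1 was 0.039 with Cy3 alone. For the difference of the KO effect Rspo1 was 0.16 with array weights and -1.05 to 0.41. The cause was not tested. The deposited value table could not be used for stroma. Signal over background limits the 21 genes without a kept probe.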
